A study of Mus musculus with 336 samples.

Results

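Cultured liver slices from wild-type (WT) and Bmal1-/- (KO) mice were compared for the level of every gene, whatever the time of day at which it was measured. The comparison used 48 of the 120 expression columns of the series, 24 from WT and 24 from KO slices, with 1 column per genotype at each of 24 time points. The design text states 3 samples per genotype and time point and the labels list 3 runs, so each column was read as 1 library, and whether it joins separate slices is not given. Each KO library was set against the WT library of the same time point, and the size of a change was the median of the 24 differences. The median limits the weight of single outlying slices in that size, while the test described below uses the mean of the differences. The question was which genes the loss of this clock factor left at another level in liver kept outside the body.

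Both groups were thin pieces of mouse liver on membranes. Both were exposed for 15 min to dexamethasone at 100 nM, a glucocorticoid that aligns the phase of cellular clocks. Slices were collected every 3 h, from 48 h after the exposure on, at time points labelled CT00 to CT69. By the labels the groups differed in genotype, Bmal1-/- in one and wild type in the other. The sources used here do not give the strain, age and sex of the mice, the part of the gene that the allele lacks or the number of animals behind the slices. P-values therefore measure the spread between these libraries, which may be technical. The WT libraries were sequenced on lanes 1, 4 and 7 and the KO libraries on lanes 2, 5 and 8, so lane and genotype cannot be told apart.

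BMAL1, encoded by the gene listed as Arntl, pairs with CLOCK or NPAS2 and activates genes that carry E-boxes in their regulatory DNA. Its targets include the Per and Cry genes, whose proteins repress that activation, the nuclear receptors REV-ERB alpha and beta (Nr1d1 and Nr1d2) and the PAR bZIP factors Dbp and Tef. REV-ERB proteins repress, and ROR proteins activate, genes with ROR elements, among them Arntl, Npas2, Clock, Cry1 and Nfil3. In liver the same factors act on genes of bile acid, lipid, glucose and xenobiotic metabolism.

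Levels are given as FPKM, read fragments relative to the length of the transcript and to the size of the library, after each library was rescaled to a common median. A difference is KO minus WT on the log2(FPKM + 1) scale, the median over 24 time points, followed by limma's moderated SE of their mean. In that SE the spread of a gene is drawn toward that of genes with a like mean difference. The log2(FPKM + 1) scale understates the change of genes near or below 1 FPKM. A gene was called when limma's moderated test of the 24 differences gave a Benjamini-Hochberg adjusted p below 0.05 over all 14563 genes tested and the difference was at least 1 in size. Of these genes 467 were called (3.21%), 287 higher in KO (1.97%) and 180 lower (1.24%). Without the size limit 6987 passed, 3479 higher, 3489 lower and 19 with a median of exactly 0. The ranges of the WT and KO libraries did not overlap for 18 genes (0.124%), of which 10 were called. A single direction at 24 of 24 time points was seen for 81 of the genes called higher and 19 of those called lower. The medians of the 3 days had the same sign for 454 of the 467. Before rescaling the median of all differences was -0.33, and 151 genes were then called higher and 559 lower, so every direction below is relative to the typical gene.

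**Figure D1:**
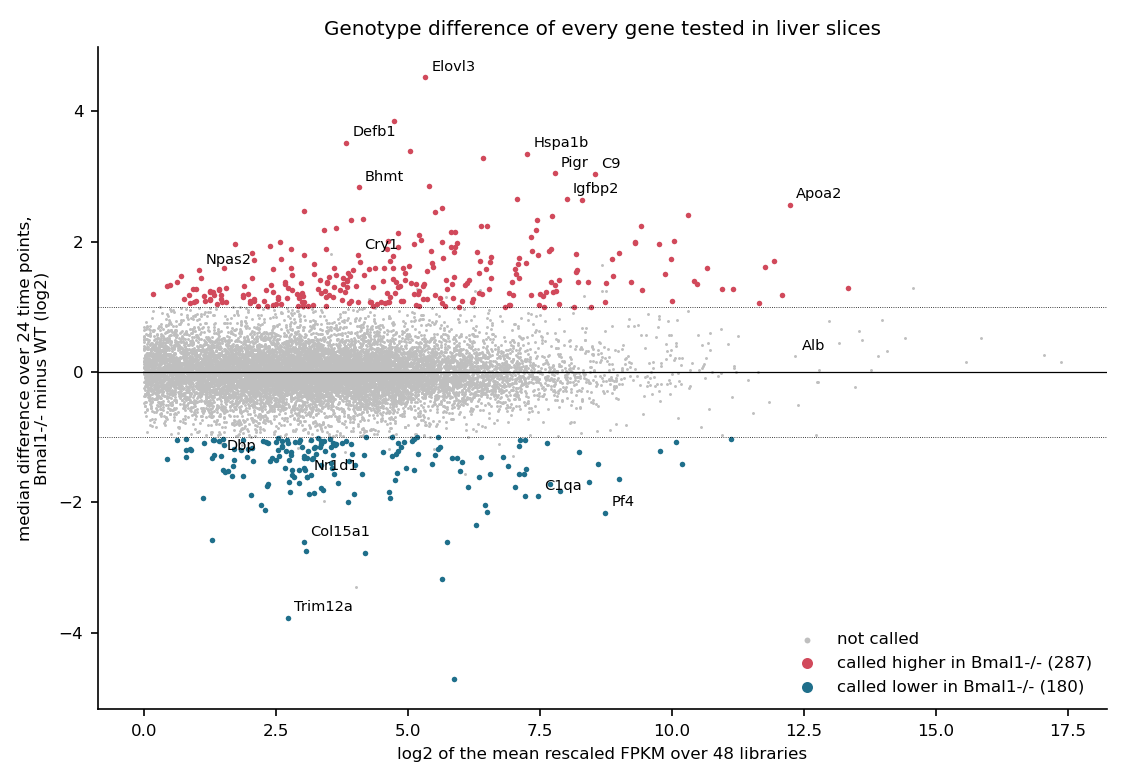
Median difference over 24 time points (KO minus WT, log2 scale, y axis) against log2 of the mean level over 48 libraries (x axis) for each of 14563 genes; red points are the 287 genes called higher in KO, blue points the 180 called lower, grey points the rest, and dotted lines mark the size limit of 1. Elovl3 stands highest and Trim12a among the lowest, and most of the genes called higher lie at moderate to high levels.

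Arntl itself was listed at similar levels in both genotypes, from 2.74 to 6.67 FPKM in WT, median 3.75, and from 2.90 to 6.72 in KO, median 4.60. The difference was 0.22 ± 0.06, higher at 20 time points (limma adjusted p = 0.00226), and -0.10 without rescaling. A value for the whole gene also counts exons outside a deleted part, so it does not check the genotype of a library.

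Clock genes changed in both directions. Nr1d1, Nr1d2 and Dbp were called lower, and Cry1 and Npas2 were called higher. Some results below are also given without the 6 time points whose libraries correlated least with the others.

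Among the REV-ERB genes, Nr1d1 (ENSMUSG00000020889, GRCm38 chromosome 11, 98767932 to 98775333) had between 7.51 and 20.9 FPKM in WT slices, with a median of 13, and between 1.97 and 6.51 in KO slices, with a median of 3.83. No KO library reached the lowest WT library. Its difference was -1.61 ± 0.14, lower at 24 of 24 time points (limma, Benjamini-Hochberg adjusted p = 4.03e-09). Nr1d2 (chromosome 14, 18204054 to 18239127) ran from 4.94 to 11.6 FPKM in WT, median 8.49, and from 1.31 to 4.24 in KO, median 2.35. The groups were again separate, and the difference was -1.32 ± 0.11 (limma adjusted p = 2.16e-09). Dbp (chromosome 7, 45705088 to 45710203), a factor that activates genes with D-boxes, had 2.58 to 9.12 FPKM in WT, median 3.90, and 0.444 to 2.11 in KO, median 0.902. Its highest KO library lay below its lowest WT library, with a difference of -1.29 ± 0.12 (limma adjusted p = 1.31e-08).

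Npas2, the partner that can take the place of CLOCK, was low in WT slices, from 0.164 to 1.34 FPKM with a median of 0.516. In KO slices Npas2 (chromosome 1, 39193731 to 39363236) ran from 1.61 to 6.73, median 3.43, above every WT library. The difference was 1.57 ± 0.11 (limma adjusted p = 1.27e-09). Cry1 (chromosome 10, 85131700 to 85185064), a repressor of BMAL1 and CLOCK, had 5.31 to 8.99 FPKM in WT, median 6.43, and 17.9 to 42.3 in KO, median 24.9. These ranges lay apart, and the difference of 1.79 ± 0.10 was a 3.46-fold change of FPKM + 1 (limma adjusted p = 7.61e-12).

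Cry2 moved the same way as Cry1 with a smaller difference. It had 2.63 to 7.45 FPKM in WT and 9.12 to 16.3 in KO, with no overlap, and a difference of 0.80 ± 0.08 that passed the test and missed the size limit (limma adjusted p = 1.90e-08). Clock was higher at 24 of 24 time points (0.50 ± 0.06), with 3.70 to 5.00 FPKM in WT and 4.92 to 10.1 in KO, so that the groups nearly separated. The period genes Per1 (0.43 ± 0.07) and Per2 (0.50 ± 0.08) were higher at 23 and 21 time points, while Per3 (-0.23 ± 0.06) was lower at 20. All of these passed the test below the size limit. Without rescaling Cry2 had 0.44, Clock 0.17, Per1 0.07, Per2 0.23 and Per3 -0.45. Bhlhe40, a repressor that competes for E-boxes, had a difference of -0.46 ± 0.08 and was lower at 22 time points. Its relative Bhlhe41 had -0.40 ± 0.12 and did not pass (limma adjusted p = 0.0556).

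Ciart and Tef, a repressor and a PAR bZIP factor that are textbook E-box genes, did not separate by genotype after rescaling. Ciart ran from 2.94 to 12.8 FPKM in WT, median 7.23, and from 3.83 to 11.7 in KO, median 7.25, with a difference of -0.07 ± 0.09 (limma adjusted p = 0.718). Tef ran from 5.98 to 17.1 in WT and from 7.97 to 25.0 in KO (-0.12 ± 0.10, adjusted p = 0.791). The WT and KO ranges of each coincided over most of their length. Nfil3, which binds D-boxes as a repressor, had 0.21 ± 0.05 and Rora, another ROR gene, 0.35 ± 0.07, both past the test and under the size limit. Nfil3 turned to -0.17 without rescaling, and Rora had 0.04. Ciart then had -0.46 (limma adjusted p = 0.000265) and Tef -0.49 (limma adjusted p = 0.00109), both under the size limit. Rorb and Hlf were under the mean of 1 FPKM and were not tested.

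Of 20 tested genes of a list of clock outputs, 1 was called, the RING finger gene Lonrf3 (1.01 ± 0.14), which was 0.70 without rescaling. The median of that list was 0.04, beside 0.0 for all genes tested, of which 3.21% were called.

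**Figure D2:**
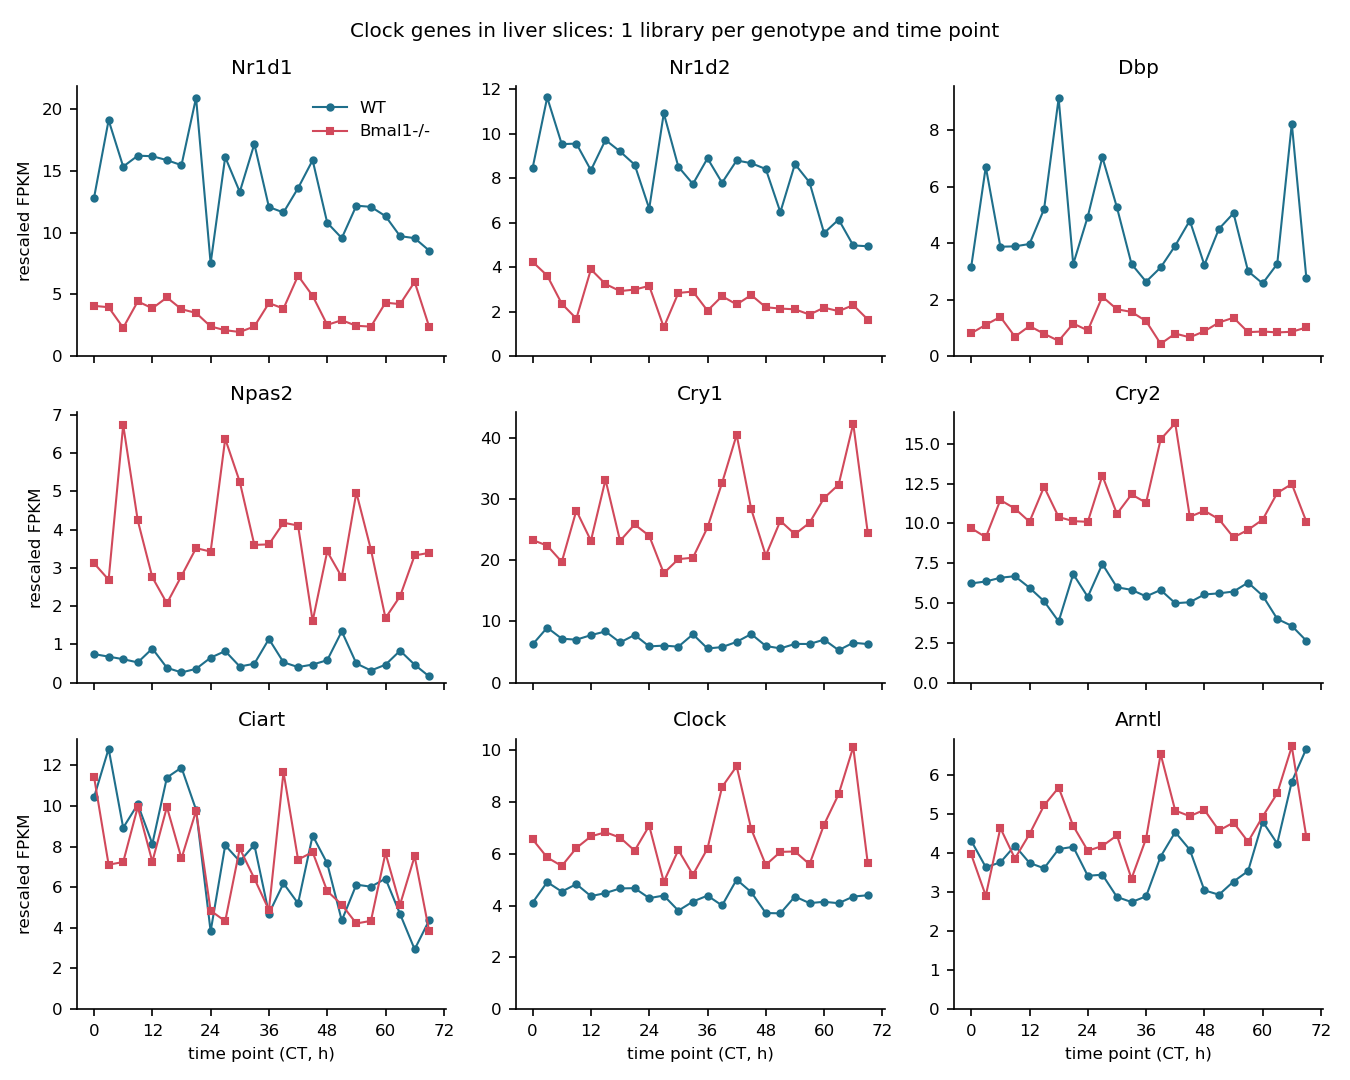
Rescaled FPKM (y axis, linear) of clock genes at each time point (x axis, CT in h) in WT (blue circles) and KO slices (red squares), 1 library per point. Nr1d1, Nr1d2 and Dbp lie lower in KO at 24 of 24 time points, Npas2, Cry1, Cry2 and Clock higher at 24 of 24, and the courses of Ciart and Arntl cross.

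Among the clock genes, E-boxes were found in the promoter of Cry1, which was called, and in those of Per1, Tef, Ciart and Bhlhe41, which were not. Shown first is Cry1, called higher, then 3 genes that were not called, each as a stretch of the RefSeq promoter (GRCm38.p6, 5′ to 3′ on the strand of the gene, within 250 bases before the start). The E-box, CACGTG, is in capitals. Positions are those of the first base of the motif relative to the start.
Cry1 (chr10:85185079-85185144, minus strand, -60): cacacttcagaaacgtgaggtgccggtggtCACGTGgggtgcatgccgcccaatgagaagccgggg
Per1 (chr11:69098753-69098818, plus strand, -166): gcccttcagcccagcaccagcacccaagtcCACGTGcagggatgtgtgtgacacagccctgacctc
Tef (chr15:81802516-81802581, plus strand, -127): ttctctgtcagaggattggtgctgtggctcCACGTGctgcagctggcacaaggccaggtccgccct
Ciart (chr3:95882237-95882374, minus strand, -116, -58 and -44): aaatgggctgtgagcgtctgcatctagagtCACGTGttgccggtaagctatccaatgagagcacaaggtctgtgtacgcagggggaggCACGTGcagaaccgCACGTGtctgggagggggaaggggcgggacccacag
The core of the ROR element, searched as TAGGTCA on both strands, was found in the window of Nfil3. There it lies on the opposite strand and is shown in capitals as read on the strand of the gene.
Nfil3 (chr13:52981040-52981081, minus strand, -12): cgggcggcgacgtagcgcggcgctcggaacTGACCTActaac
A match is a description of letters, not a bound site. The D-box was searched as TTANGTAA, also on both strands. The windows of Nr1d1, Nr1d2, Dbp and Npas2 hold none of the 3 motifs, which says only that these letters are not in these windows. The E-box was in 10.0% of the 9577 tested genes with a promoter entry, in 9.33% of the 193 called higher and in 5.13% of the 117 called lower. The core of the ROR element was in 2.18, 5.18 and 5.13%, and the D-box in 1.63, 4.15 and 0.855% of the same groups. Among genes called higher and lower, these shares rest on 18 and 6 genes for the E-box, 10 and 6 for the ROR element and 8 and 1 for the D-box. Differences between the shares were not tested. The share over the 27025 promoters of the table was 6.86% for the E-box, 2.55% for the ROR element and 2.44% for the D-box.

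Outside the clock, the largest rise was that of Elovl3, an elongase of very long fatty acids. Elovl3 (chromosome 19, 46131897 to 46135694) had 0.192 to 3.80 FPKM in WT slices, median 0.841, and 7.60 to 548 in KO slices, median 49.7. The groups did not overlap, and the difference of 4.53 ± 0.27 was a 23-fold change of FPKM + 1 (limma adjusted p = 1.23e-11). Defb1, an antimicrobial defensin of epithelia, ran from 0.365 to 4.15 FPKM in WT, median 1.09, and from 4.09 to 80.2 in KO, median 21.7. Its highest WT library just exceeded its lowest KO library, and the difference was 3.52 ± 0.21. Pigr, the receptor that carries polymeric antibodies across hepatocytes into bile, had 3.05 ± 0.23, and Bhmt, which returns a methyl group from betaine to homocysteine, 2.84 ± 0.24. Pon1, a plasma esterase carried on HDL, had 2.65 ± 0.24 and the carrier of insulin-like growth factors Igfbp2 2.65 ± 0.23. Each of these was higher at 24 of 24 time points, with overlapping ranges. Hectd2os, a transcript antisense to Hectd2, rose from a median of 1.12 to 10.2 FPKM (2.47 ± 0.21, no overlap). The strand setting of the counting is not given in the sources used here.

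Many genes of proteins that hepatocytes secrete rose. Of 13 tested apolipoproteins and lipid carriers, 8 were called higher and 2 lower, with a list median of 1.29. Apoa2, a structural protein of HDL, ran from 223 to 5350 FPKM in WT, median 1170, and from 860 to 42900 in KO, median 5610. KO was higher at all 24 time points although the ranges overlapped, with a difference of 2.57 ± 0.22 (limma adjusted p = 2.04e-08). Apoh had 2.23 ± 0.22, Apof, an inhibitor of lipid transfer, 2.18 ± 0.22, and Apoa5, a modulator of plasma triglyceride, 1.86 ± 0.21. The members called lower were Apoa4 (-1.37) and Apoc2, the activator of lipoprotein lipase (-1.22). The count of rises was 5 without rescaling and 7 without the 6 time points of lowest correlation.

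Complement and coagulation genes had 15 of 23 tested members called higher and none lower, with a median of 1.09. C9, the pore-forming component, ran from 8.80 to 340 FPKM in WT, median 64.2, and from 56.1 to 3260 in KO, median 457. The ranges overlapped, yet KO was higher at each time point (3.04 ± 0.22, limma adjusted p = 1.62e-09). Mbl1, a lectin that starts complement activation, had 1.99 ± 0.21, Serpinc1, which encodes antithrombin, 1.97 ± 0.22, and Plg, the precursor of plasmin, 1.88 ± 0.22. The list had 8 members called without rescaling and 10 without the 6 time points.

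Bile acid genes had 7 of 14 tested members called higher and none lower, median 0.83. Cyp8b1, the enzyme that sets the share of cholic acid, had 0.283 to 5.33 FPKM in WT, median 1.19, and 0.961 to 90.0 in KO, median 6.29. The difference was 1.74 ± 0.22 and KO was higher at 24 time points, with overlapping ranges. The uptake transporter Slc10a1 had 1.60 ± 0.21, the bile acid ligase Slc27a5 1.42 ± 0.21 and the export pump Abcb11 1.36 ± 0.17. Cyp27a1 (-0.09) and Akr1d1 (-0.01) of the same pathway were not called.

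Among 25 cytochrome P450 genes, 10 were called higher and 2 lower, median 0.70. Cyp2e1, an oxidase of ethanol and small solvents, had 2.97 to 114 FPKM in WT, median 20.4, and 14.8 to 675 in KO, median 96.3, overlapping, with a difference of 2.24 ± 0.20. Cyp2c50 (2.35 ± 0.22), Cyp2f2 (2.14 ± 0.22) and Cyp2c37 (1.99 ± 0.20) were higher at 24 time points. Cyp2c genes form a cluster of near copies, so reads may have been split between them. Those called lower were Cyp1b1 (-1.51), found mostly outside hepatocytes, and Cyp2a5 (-1.06). Conjugating enzymes had 5 of 21 called higher, all of the glucuronosyltransferase families Ugt2a and Ugt2b, led by Ugt2b1 (2.15 ± 0.23). The glutathione transferases of that list, 11 genes of the Gsta, Gstm, Gstp and Gstt families, lay between -0.59 and 0.41 with none called. Gstm6 (1.52) and Gstm7 (1.15), outside the list, were called higher. That list's median was 0.18 and turned to -0.22 without rescaling, and without the 6 time points 2 members were called.

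Male-biased liver genes, those that adult males express above females, had 9 of 14 tested members called higher and none lower, median 1.22. Beside Elovl3 and C9 they included Mup21, a major urinary protein, with 0.521 to 35.5 FPKM in WT, median 6.18, and 4.51 to 294 in KO, median 33.6. The ranges overlapped while KO was higher at 24 time points (2.13 ± 0.21). Mup20, the pheromone darcin, had 1.74 ± 0.21. Mup17, which stood on no list, went the other way, from a median of 66.9 FPKM in WT to 8.90 in KO, lower at 24 time points (-2.62 ± 0.31, overlapping). Major urinary proteins are near-identical copies and their values are uncertain for that reason. Of 19 female-biased genes 2 were tested, and Prlr, the prolactin receptor, was called higher (1.83 ± 0.20). Y-linked genes were present in both genotypes, with Ddx3y at 12.5 to 26.4 FPKM in WT and 16 to 42 in KO, and Xist stayed at or below 0.92 FPKM in each library.

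Not all functions of hepatocytes moved. Of 16 urea cycle and amino acid genes 3 were called higher, Hpd of tyrosine breakdown (1.80 ± 0.22), Otc (1.27 ± 0.22, or 0.96 without rescaling) and Ass1 (1.00 ± 0.21, or 0.63 without rescaling and 0.85 without either of the first 2 days), while Arg1 (-0.77) and Asl (-0.37) of the same cycle were not called. Of 13 glucose genes 1 was called, G6pc, the phosphatase that releases glucose, with 0.242 to 11.4 FPKM in WT and 2.25 to 71.9 in KO (1.65 ± 0.19). Pck1, the other regulated step of glucose production, had 0.33 and was not called. Lipogenesis had 1 of 14 called, the carbohydrate-sensing factor Mlxipl (-1.07 ± 0.23), which lost its call without the first or the second day. Cholesterol synthesis genes (15 tested) had a median of -0.55. Fatty acid oxidation had 1 of 18 called, the hormone gene Fgf21 (1.01 ± 0.15), at 0.64 without rescaling. Ribosomal proteins (15 tested, median 0.02) and oxidative phosphorylation (16 tested, median -0.17) had none called. Over all genes tested 3.21% were called, so a single call in a list of this size is near that share.

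The 12 hepatocyte markers themselves had 4 called higher and none lower, median 0.79. They were Cyp2e1, Serpina1c (2.01 ± 0.21), Ttr (1.35 ± 0.21) and Apoa1 (1.18 ± 0.23). Apoa1 was higher at 17 of 24 time points. Without rescaling it had 0.78 and Ttr 0.96, and the list then had 2 called higher and 1 lower, or 3 and 1 without the 6 time points. Alb, at 0.25, and Fabp1, at -0.33, were not called. Hepatocyte transcription factors had none of 15 called, median -0.13, and Hnf4a, a defining factor of the cell type, had -0.91 ± 0.18, which became a call without rescaling (-1.29), without the third day (-1.11) and without the 6 time points (-1.11). The mean log2 level of the 12 markers ran from 4.34 to 8.13 over WT libraries, median 6.61, and from 5.48 to 10.07 over KO libraries, median 7.28. In bulk slices, fewer cells of a type and less RNA per cell cannot be told apart. The part of hepatocyte content in the rises above was not tested.

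**Figure D3:**
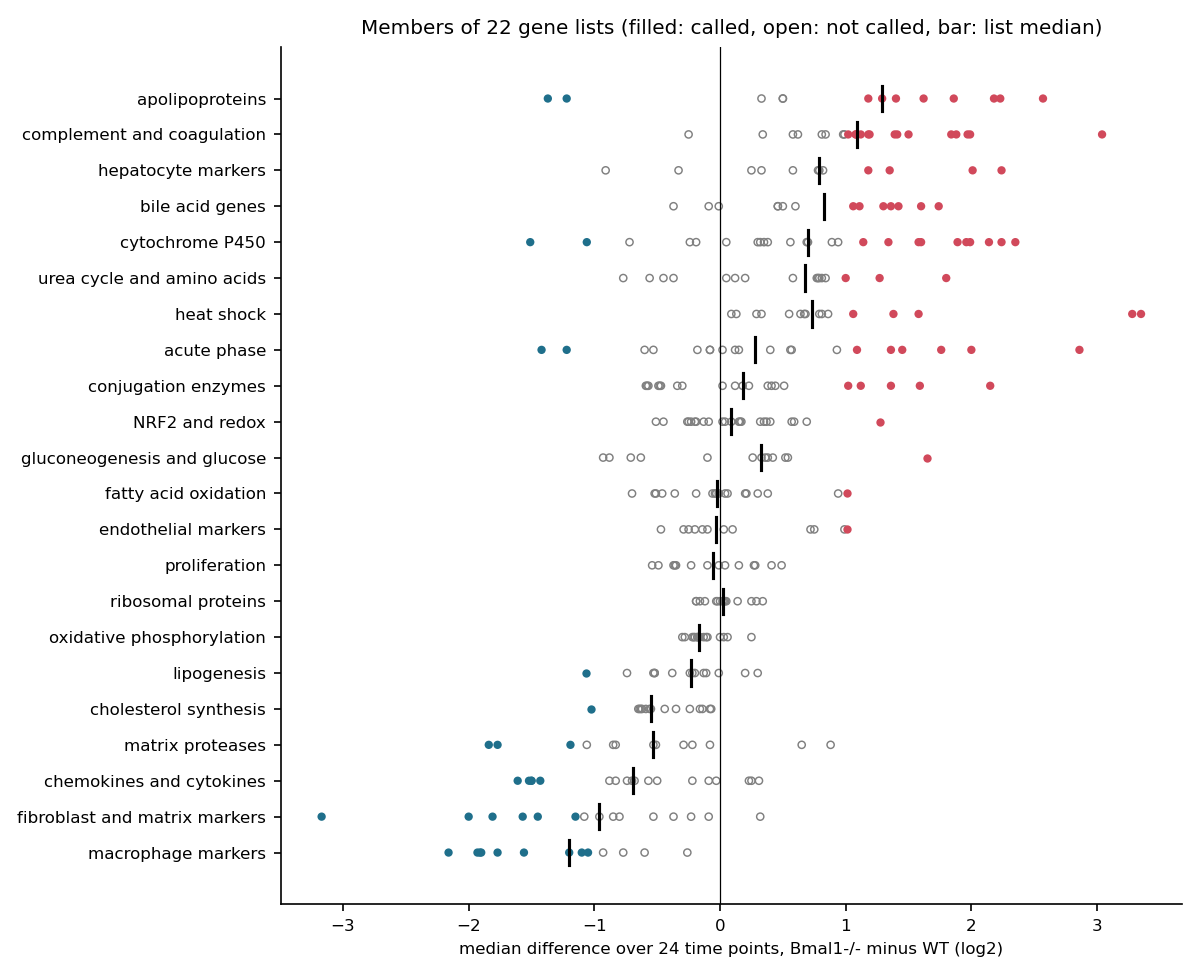
Median difference (KO minus WT, log2 scale, x axis) of each tested member of 22 gene lists (rows); filled points were called, red higher and blue lower, open points were not called, and black bars are list medians. Complement, apolipoprotein and bile acid genes reach to the right with medians of 0.83 to 1.29, macrophage and fibroblast markers to the left with -1.20 and -0.96, and ribosomal proteins sit around 0.02.

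Macrophage markers fell. Of 13 tested members 9 were called lower and none higher, all 13 were below 0, and the median was -1.20. C1qa, a chain of complement C1q made by Kupffer cells, had 38.3 to 1190 FPKM in WT slices, median 256, and 8.73 to 141 in KO, median 37.8. The ranges overlapped and KO was lower at 22 of 24 time points (-1.91 ± 0.40, limma adjusted p = 3.97e-05). C1qb had -1.90 ± 0.36, the scavenger receptor Marco -2.16 ± 0.47 and the complement receptor Vsig4 -1.93 ± 0.38. Among genes on no list, Trem2 (-1.87 ± 0.33), Ms4a4a (-1.85 ± 0.33) and the platelet and macrophage chemokine Pf4 (-2.16 ± 0.37) fell with them. Cd68 (-0.60) and Csf1r (-0.77), which many macrophages share, were not called. No tested marker of the list was at 0 in any library. The list median was -0.89 on the first day, -1.19 on the second and -2.36 on the third. The mean log2 level of the markers ran from 3.28 to 7.86 in WT, median 5.38, and from 2.50 to 4.88 in KO, median 3.57. The highest WT values were those of CT66 and CT69, 7.86 and 7.76, and without the 6 time points that include them 7 markers were called, with the median at -1.20.

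Chemokine and cytokine genes had 5 of 18 tested members called lower and none higher, median -0.69. Ccl9 ran from 36.2 to 428 FPKM in WT, median 98.2, and from 3.52 to 117 in KO, median 29.4, overlapping and lower at 22 time points (-1.61 ± 0.31). Ccl2, which draws monocytes, had -1.52 ± 0.26 and Ccl7 -1.43. The others were Cxcl5 (-1.5 ± 0.21), which draws neutrophils, and Cxcl14 (-1.5 ± 0.22). Cxcl2 (0.31) and Il6 (-0.57) were not called. Macrophages are among the known sources of several of these chemokines, and the part of macrophage content was not tested.

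Acute phase genes split. Of 20 tested, 6 were called higher and 2 lower, median 0.28, which was -0.12 without rescaling. The iron hormone genes Hamp2 (2.86 ± 0.23) and Hamp (2.0 ± 0.23) rose, with Hamp at 39.5 to 856 FPKM in WT, median 227, and 177 to 3000 in KO, median 738. Itih3 had 1.76 ± 0.27 and Crp 1.45 ± 0.22. Lcn2, an iron-scavenging protein of inflamed tissue, ran from 502 to 3930 FPKM in WT, median 1320, and from 125 to 4500 in KO, median 690, lower at 22 time points (-1.42 ± 0.27). Saa3, a serum amyloid made also by macrophages, had -1.22. Saa1 (-0.53), Saa2 (-0.60), Hp (0.57) and Orm1 (0.40) were not called.

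Fibroblast and matrix markers had 6 of 15 called lower and none higher, median -0.96. Col3a1 ran from 16.3 to 179 FPKM in WT, median 43.8, and from 0.632 to 443 in KO, median 3.81, so that the KO libraries spanned the whole WT range. Its difference was -3.17 ± 0.51, lower at 21 time points (limma adjusted p = 7.48e-05). Col1a1 had -2.0 ± 0.34, Col1a2 -1.81 ± 0.35 and the matrix proteoglycan Bgn -1.57 ± 0.22. Col15a1 (-2.62 ± 0.29) and Col6a3 (-2.04 ± 0.25), on no list, also fell. The 3 KO libraries of CT06, CT27 and CT33 stood apart, with mean marker levels of 6.30, 6.22 and 4.79 on the log2 scale, where the median KO library had 2.89 and WT libraries ran from 3.15 to 5.19. No tested marker was at 0 in any library. Among matrix proteases and their inhibitors (13 tested, median -0.53), Mmp7 (-1.84 ± 0.48) and Timp1 (-1.77 ± 0.29) were called lower. Mmp7 and Col1a2 lost their calls without the third day.

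Endothelial markers had 1 of 12 called, Lyve1 (1.01 ± 0.19), median -0.04, and Lyve1 was 0.61 without rescaling. Stellate and smooth muscle markers had 1 of 10 called, the receptor Pdgfrb (-1.31 ± 0.17). Of 3 tested mesothelial markers, Krt8, a keratin that hepatocytes also make, was called lower (-1.41 ± 0.16). Cholangiocyte markers had 1 of 10 called, Spp1 (-1.07 ± 0.28), with a median of 0.30 that became -0.09 without rescaling. Spp1 lost its call without the second day (-0.64) and without the 6 time points (-0.94). Of the neutrophil markers 1 was tested, S100a8 (-0.53 ± 0.21), and of the lymphocyte markers none. Erythroid genes had 3 of 5 called higher, Hbb-bs (2.11 ± 0.22), Hba-a1 (1.57 ± 0.18) and Hba-a2 (1.5 ± 0.16). The alpha-globin genes are near-identical copies.

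**Figure D4:**
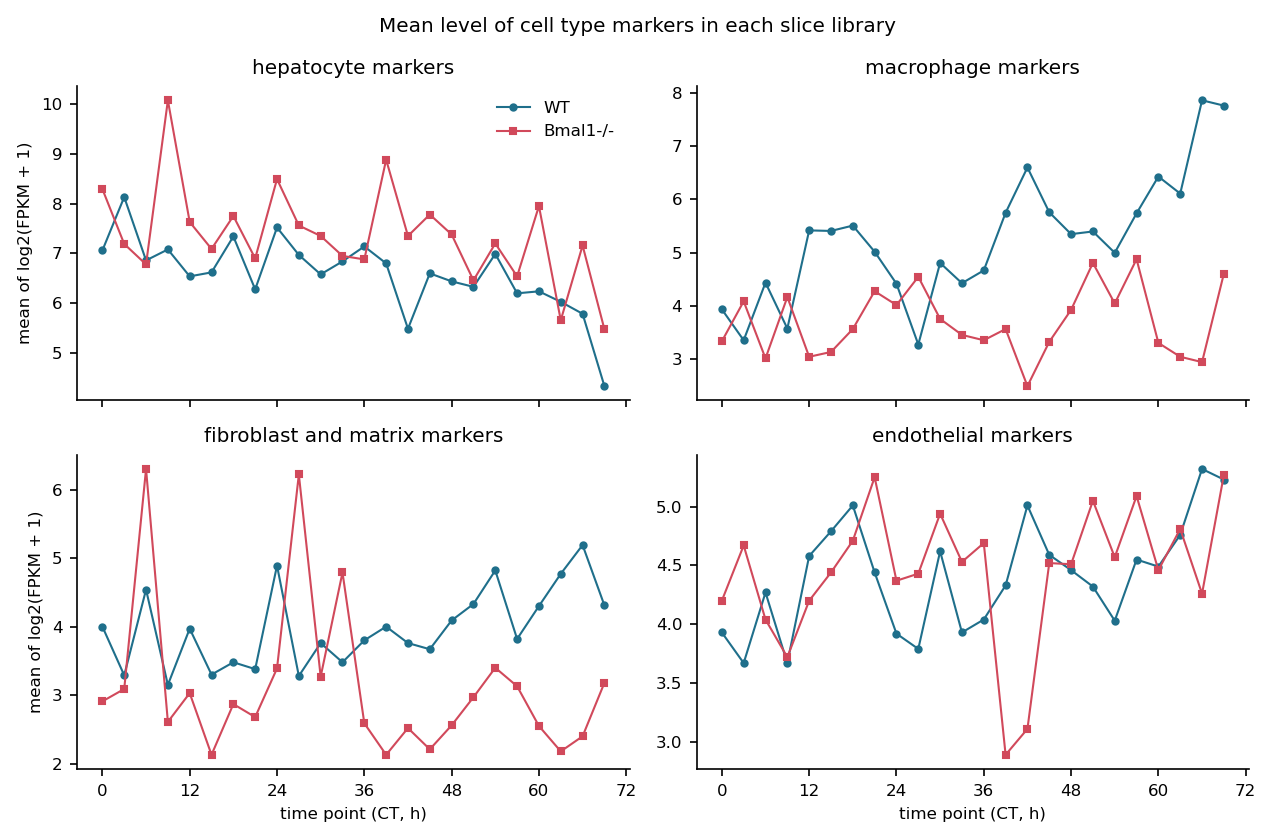
Mean of log2(FPKM + 1) over the tested markers of 4 cell types (y axis) in each slice library by time point (x axis, CT in h), WT in blue circles and KO in red squares. Macrophage markers in KO stay at 4.88 or below while WT reaches 7.86 at CT66, and 3 KO libraries stand out in the fibroblast panel.

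Heat shock genes had 5 of 16 called higher and none lower, with all 16 above 0 and a median of 0.74. Without rescaling 3 were called, with a median of 0.35. Hspa1b, an inducible HSP70, ran from 2.22 to 112 FPKM in WT, median 21.4, and from 6.08 to 1120 in KO, median 163. The ranges overlapped over most of the WT values, and KO was higher at 22 time points (3.35 ± 0.39, limma adjusted p = 7.25e-07). Hspa1a, its near-identical copy, had 3.28 ± 0.36, the cochaperone Hsph1 1.58 ± 0.23 and Hsp90aa1 1.38 ± 0.20 (0.98 without rescaling). The small chaperone Hspb1 (0.09) and the mitochondrial Hspd1 (0.13) were not called. Stress genes beyond this list were Gdf15 (1.53 ± 0.21), Gadd45b (1.58 ± 0.20) and Gadd45g (1.37 ± 0.18, or 0.97 without rescaling), called in lists where 2 of 14 and 2 of 16 members were. Hmox1, the enzyme of heme breakdown, was the 1 called member of 23 redox genes (1.27 ± 0.15), and 0.89 without rescaling. That count is near the 3.21% called over all genes tested.

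Some genes were listed at or near 0 in KO libraries and not in WT libraries. Trim12a, a member of the antiviral TRIM family, had 7.83 to 19.2 FPKM in WT, median 12.6, and was listed at 0 in 21 of 24 KO libraries, with a highest value of 0.174. The difference was -3.77 ± 0.50 (limma adjusted p = 1.79e-06), where the SE of its own 24 differences, before moderation, was 0.07. Trim12a lies on chromosome 7 at 104299894 to 104315466, 8.89 Mb from Arntl (113207465 to 113314126). Gm24846, a small RNA gene model at 104264683 to 104264790, had a mean of 7.35 FPKM in WT and was listed at 0 throughout KO (-1.60). Within 10 Mb of Arntl 138 genes were tested and 6 called (4.35%, beside 3.21% of all genes tested), 3 higher and 3 lower. The others were Igsf6 (-1.04), Hbb-bs, Lyve1 and Olfml1 (1.22). Trim12a has close paralogs in the same cluster, so its value is uncertain. A further gene model with no symbol, ENSMUSG00000086886, had 2.74 to 6.73 FPKM in WT and was listed at 0 in every KO library.

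Genes whose ranges separated without reaching the size limit were Cry2, Pfn1, Tubb5, Cndp2, Tsta3, Scmh1 and the models Gm10073 and Gm10136. Tubb5, a beta tubulin, had 157 to 310 FPKM in WT and 59.6 to 156 in KO (-0.96 ± 0.09). Pfn1, the actin-binding profilin, had 868 to 1270 in WT and 647 to 862 in KO (-0.45 ± 0.05). Scmh1, a Polycomb protein, had 13.7 to 34.6 in WT and 35 to 94.7 in KO (0.88 ± 0.10). Nme4, a mitochondrial nucleoside diphosphate kinase, separated and was called (-1.01 ± 0.10), with 6.30 to 11.3 FPKM in WT and 1.25 to 5.29 in KO.

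Few genes passed a test of whether their genotype difference moved over the 3 days of culture, which does not show that the others held still. Shifts of list medians by day, such as that of the macrophage markers above, were not tested. A linear trend of the 24 differences passed in 3 genes (0.0206%), none of them called for level. The difference of Efna1, an ephrin ligand, went from -0.47 on the first day to 0.15 on the third, with a slope of 0.34 per day (limma adjusted p = 0.0216), and that of Serinc5, a membrane protein, from -0.44 to 0.28 (slope 0.41, adjusted p = 0.0315). Lrpap1, a chaperone of LDL receptors, went the other way, from 0.30 to -0.64 (slope -0.63, adjusted p = 0.00814). None of the 3 remained a call when the first or the third day was left out. By day the medians were -1.79, -1.45 and -1.46 for Nr1d1 and 1.64, 1.78 and 1.92 for Cry1.

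Liver and fibroblast samples of the same 2 genotypes were set beside the slices as a description, since their tables were made separately. The short liver course has 3 replicates at each of T00, T06, T12 and T24 per genotype, and the fibroblast course 24 time points per genotype. Both are listed with the same exposure as the slices, dexamethasone at 100 nM for 15 min. Fibroblasts, like slices, were collected every 3 h from 48 h after the exposure on. For the short course the sources used here give no such delay. Of the genes called in slices, 402 were also measured in the short course, and 300 of them (74.6%) differed in the same direction there, beside 54% of 11801 tested genes. Among genes called lower the count was 127 of 147, and among those called higher 173 of 255. In fibroblasts 99 of 200 called genes (49.5%) had the same direction, beside 52.3% of 12460. Over the 402 genes the 2 liver tables had a Pearson r of 0.52, across genes, which are not independent replicates.

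Several clock genes had larger differences in the short course. Nr1d1 had 36.5 ± 8.43 FPKM (SD over 12 samples) in WT and 1.14 ± 0.55 in KO there, a difference of -4.13 beside -1.61 in slices. Dbp had -3.73 beside -1.29. Ciart had 36.8 ± 23.8 FPKM in WT and 2.49 ± 1.97 in KO, a difference of -3.32, where the slices gave -0.07 (-0.46 without rescaling). Per1 was lower in the short course (-1.01) and higher in slices (0.43, or 0.07 without rescaling). Tef had -1.04 beside -0.12 (-0.49 without rescaling). Npas2 (2.37 and 1.57) and Cry1 (1.38 and 1.79) were higher in both liver tables. Whether these differences between tables exceed their spread was not tested.

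Outside the clock, Elovl3 (2.89), Defb1 (2.47), Hectd2os (3.32), Hamp2 (2.95) and Bhmt (2.23) were higher in the short course as in slices, and Mup17 (-5.30) and Trim12a (-2.31) lower. Trim12a was lower in fibroblasts too, at -0.85, with a median of 16 FPKM still listed in KO. The secreted proteins of hepatocytes had smaller values, with list medians of -0.01 for apolipoproteins and 0.12 for complement and coagulation, where slices had 1.29 and 1.09. Several other lists that were above 0 in slices had short-course medians below 0. Among them were hepatocyte markers (-0.55), male-biased genes (-0.46) and erythroid genes (-0.42), where slices had 0.79, 1.22 and 1.5. Clock repressors (-0.9 beside 0.18), acute phase genes (-0.31 beside 0.28) and glucose genes (-0.21 beside 0.33) were others. Bile acid genes had 0.03 and cytochrome P450 genes 0.0. Heat shock genes had 0.06 and Hspa1b 0.19. Mup20 had -1.19 where the slices had 1.74. Macrophage markers had a median of -0.33 and fibroblast markers -0.05.

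Some of the 169 genes called in slices and measured in all 3 tables differed by at least 1 in the same direction in each. Nr1d1, Nr1d2, Npas2, Cry1, Lpl, Hacl1 and Coq8a did so. Lpl, the lipase that clears triglyceride from lipoproteins, had 1.85 in slices, 3.62 in the short course and 2.29 in fibroblasts. Hacl1, of peroxisomal alpha-oxidation, had 1.04, 1.42 and 1.44, and Coq8a, of coenzyme Q synthesis, 1.07, 1.99 and 1.61.

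**Figure D5:**
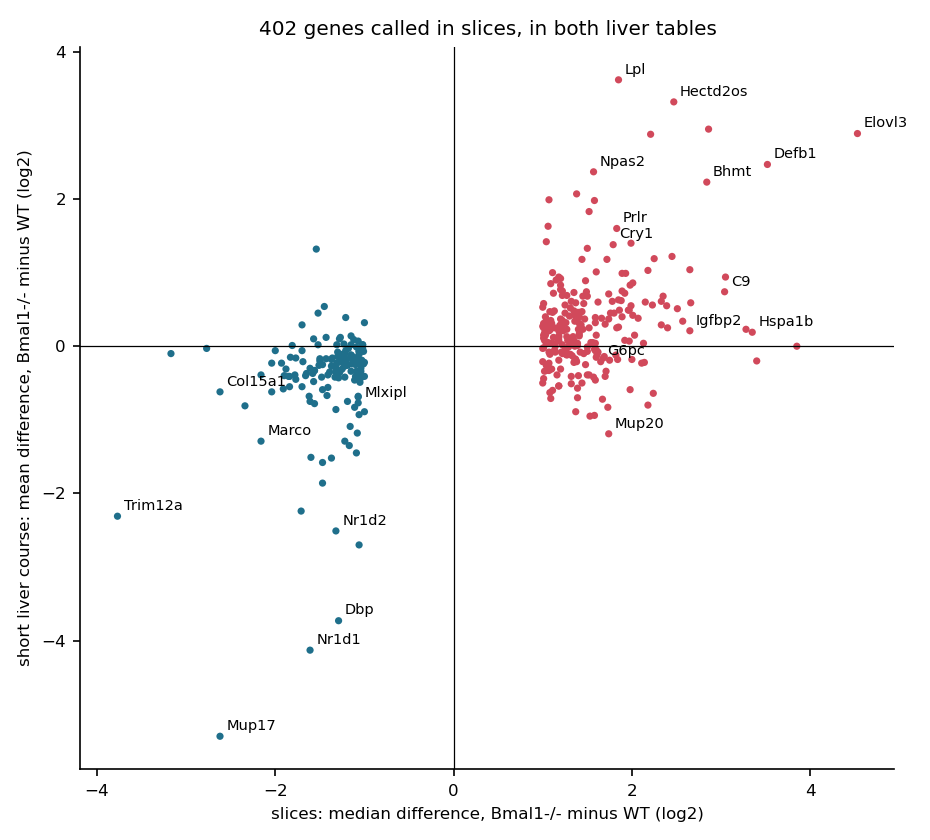
Difference in the short liver course (mean over 4 times, KO minus WT, log2 scale, y axis) against the median difference in slices (x axis) for the 402 genes called in slices and measured in both; red genes were called higher and blue lower in slices. Points in the upper right and lower left, 300 of 402, share a direction, with Elovl3, Lpl and Hectd2os far to the upper right and Nr1d1, Dbp and Mup17 far down on the left.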

How the data were processed

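Poly(A) mRNA of liver slices was sequenced as single reads in 72 runs per genotype, 3 per library. TopHat2 2.1.0, Cuffdiff and the build GRCm38 are named in the submitters' processing notes, which give no further settings here. The authors deposited 1 FPKM value per gene and library, while annotation release and scaling between libraries were not given in the sources used here. Depth is unknown, so no counting interval is given, and an exact 0 is called listed at 0. No per-sample column was left unused (0 columns).

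FPKM were rescaled within each table by median-of-ratios factors, 0.824 to 1.17 in slices (median 1.15 in WT, 0.876 in KO), and taken as log2(FPKM + 1) for genes whose mean reached 1 FPKM. The 24 differences by time point were tested with limma 3.58.1 in R 4.3.3 (variance trend over the mean difference, robust), Benjamini-Hochberg adjusted, and their slope on time likewise. Library medians of correlation with the others of their genotype ran from 0.869 to 0.939 in WT and 0.855 to 0.924 in KO, and the 10 most abundant genes took 35.4 to 58.0% of FPKM.

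Named were the clock genes, the 12 highest and 12 lowest called genes that averaged 5 FPKM or more in the higher genotype, with 1 direction at 22 or more time points, up to 4 called members of each list (2 where none was called) and the trend genes. A few genes that this rule names are not reported here. Separated genes, members that show a list's spread, neighbours of Arntl and genes shared by tables were added after their values were seen. Members and lists (48, with 658 genes) were chosen with earlier results of these data known. The pairing is by labelled time. Deviations of same-time libraries correlated over 0.1 at 11 of 24 time points (-0.13 to 0.36, median 0.09).

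Symbols and coordinates are GENCODE M21 (GRCm38), with 47218 of 47632 gene IDs matched. Promoters are RefSeq GRCm38.p6. Alternatives were a pseudocount of 0.1, no filter, no rescaling, leaving out days, time points or the 6 time points of lowest correlation, a rank test, no pairing, 1 mean per day, the mean in place of the median, no size limit and 24 h terms.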

Additional observations from a re-analysis of the deposited data

Results flagged for a closer look

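Clock and Gadd45g differed in opposite directions in slices and fibroblasts at every one of the 24 time points of both courses, and this difference between the tables was not tested. Clock, the partner of BMAL1, was higher in KO slices (0.50, or 0.17 without rescaling) and lower in KO fibroblasts (-0.65, from a median of 14 to 8.63 FPKM). Gadd45g, a stress gene, was higher in KO slices (1.37, from a median of 15.5 to 37.1 FPKM) and lower in KO fibroblasts (-1.73, from 48.0 to 13.8 FPKM). In the short liver course Clock had 0.69 and Gadd45g -0.89.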

How the results depend on the processing

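Beside 467 calls (287 higher, 180 lower), a pseudocount of 0.1 gave 827 (472 and 355), no rescaling 710 (151 and 559) and no size limit 6987 (3479 and 3489). No filter, the rank test, 1 mean per day, the mean in place of the median, leaving out a day and leaving out the 6 time points gave 432 to 543 calls, and leaving out 1 time point 429 to 501 (263 to 306 higher, 166 to 195 lower). Without the replicate block, that is without pairing by time point, 465 genes were called (286 higher, 179 lower), and 469 with 24 h terms in place of the block; no named gene changed its call without the block. The trend, 3 genes (2 rising, 1 falling), gave 0 without day 1, without day 3, by the rank test and between days 1 and 3 (0 rising and 0 falling each), 7 without the second day (5 falling), 1 (0 rising) without the 6 time points of lowest correlation and 1 rising with no filter. Leaving out 1 time point gave 1 to 9 (0 to 4 rising, 1 to 5 falling), with 9 without CT27, 6 without CT57, 5 without CT00 or CT15 and 1 without CT06, CT09, CT60 or CT69.

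Of 128 named genes, 99 of them called, 16 lost their call and 4 reversed without rescaling: Arntl (-0.10), Nfil3 (-0.17), Rpl13 (-0.06) and Rpl5 (-0.10), none of them called. Without day 1 Ciart (0.07), Tef (0.0), Serinc5 (0.19) and Efna1 (0.08) reversed, and without day 3 Lrpap1 (0.13), again uncalled genes. Calls were lost by 5, 8 and 9 named genes without day 1, 2 and 3, by 7 without the 6 time points and by 6 with the mean in place of the median, and by none with a pseudocount of 0.1. The cause was not tested.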

Other observations

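Short RNA genes stood among the largest differences in both directions, though the libraries were poly(A)-selected and FPKM of very short genes rests on few positions. Rpph1, the RNA of RNase P, ran from 6.53 to 131 FPKM in WT and from 9.19 to 1050 in KO (2.66 ± 0.33), and Rmrp, the RNA of RNase MRP, had 2.51. Mir1938 had 3.85, while Snord49a (-4.71), Mir142b (-2.77) and Mir130c (-2.34) were lower. In the short course Rpph1 had 0.59 and in fibroblasts 0.86. These genes were chosen after their values were seen.

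Further plasma proteins and enzymes of hepatocytes on no list were called higher in KO slices, among them the lipase Lipc (2.45), the adhesion protein Vtn (2.40), the angiotensin precursor Agt (2.39), the complement component C8g (2.33), the steroid oxidoreductase Hsd17b6 (2.33), the protease inhibitors Mug1 (2.07) and Mug2 (2.01) and the feeding-induced hormone Angptl8 (2.03). Called lower were the intermediate filament Vim (-1.69), the galectin Lgals1 (-1.83), the chemokine Ccl6 (-1.65), the complement receptor C5ar1 (-1.70), the adhesion receptor Vcam1 (-1.88), the growth factor Nrg4 (-1.71) and the claudin Cldn2 (-1.70). They too were chosen after their values were seen.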
